A study of Homo sapiens with 13 samples.

Results

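Fibroblast growth factor 2 (FGF2) was given to human neurons made from embryonic stem cells at either of 2 stages, and the genes described here are those whose response at the later stage differed from their response at the earlier one. The difference was taken over 8 of the 13 samples of the series, as the log2 ratio of FGF2 to control at day 12 minus the same ratio at day 6. It passed the test for 147 of 20142 genes tested (0.73%; edgeR quasi-likelihood test, Benjamini-Hochberg adjusted p under 0.05). The late value was above the early one for 130 of them (0.645% of the genes tested) and below it for 17 (0.0844%). ETV4, a transcription factor induced by FGF signalling, went furthest up, and ANOS1, the extracellular modulator of FGF receptor signalling also called anosmin-1, went furthest down among genes averaging 5 CPM or more (CPM are counts scaled to 1000000 per library).

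The cells were H9 embryonic stem cells that carry a stable, doxycycline-inducible NEUROG2, a proneural factor that turns stem cells into neurons. All 4 groups received 1 µg/ml doxycycline for 6 days, 2 days in E8 medium and then in 3N medium. The day 6 control was harvested at the end of doxycycline, and the day 6 FGF2 group had in addition 20 µg/ml FGF2, the dose given in the labels, throughout those days. The day 12 groups went on for 6 more days without doxycycline, with no factor added in the control and with FGF2 in the other group. One label field starts late FGF2 at day 7 and another at day 6, and the day 12 control's description says 6 days of growth although its periods add to 12. Each group had 2 libraries, each from 1 well of a six-well plate, numbered in the titles as hES-N2G1 and hES-N2G2, while the source names of the same samples say hES-N1. Whether the numbers stand for separate lines, clones or cultures is not given, so p-values measure only the spread between these libraries, which may be technical. E8 medium holds FGF2 as part of its usual recipe, and all 4 groups passed through it. Day, doxycycline, medium and the stage of FGF2 change together between the day 6 and day 12 libraries and cannot be told apart.

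FGF2 binds FGF receptors together with heparan sulfate, and the receptors pass the signal through adaptor proteins of the FRS and SHC families to RAS and the kinases MEK and ERK. ERK activates transcription factors of the ETS, AP-1 and SRF groups. Among the genes it turns on are inhibitors of the same route, such as the Sprouty proteins and the ERK phosphatases, and the PEA3 factors ETV1, ETV4 and ETV5. In neurons the route is known for its part in survival, axon growth and the choice of subtype.

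The libraries held 22802501 to 30014661 counts. NEUROG2, whose reads include any from the transgene, lay at 7540 to 7830 CPM in the day 6 libraries and at 49.3 to 54.7 CPM in the day 12 libraries. The neuronal markers STMN2, DCX, MAPT and MAP2 were present in all 8, POU5F1, a pluripotency factor, was at most at 0.222 CPM, the glial marker GFAP at most at 0.112 CPM, and SOX10, a marker of neural crest and glia, had no count in any library. The proliferation markers MKI67 and TOP2A were at 63.2 CPM or more in every day 6 library and at most at 1.62 CPM in any day 12 library. Replicates of 3 groups differed by a chi-square of 2.87 to 3.26 per degree of freedom, and the 2 day 6 FGF2 libraries by 19, so these stand further apart than any other pair. In the second of them MKI67 was at 63.2 CPM and DCX at 1640 CPM, against 99.4 and 2240 CPM in the first. In bulk samples fewer cells of a type and less RNA per cell cannot be told apart.

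No gene passed the test for the early effect in edgeR (0% of 20142, smallest adjusted p = 0.927), and 658 had an unadjusted p below 0.05. DESeq2 and limma voom also called 0, with 314 and 682 genes at that unadjusted level. The authors' deposited tables hold 0 genes with an adjusted p below 0.05 for early FGF2 in both of their fits. The late effect was called for 329 genes that rose (1.63%) and 108 that fell (0.536%), 437 in all. That count was 1171 and 1188 without the first and second day 6 FGF2 library, 217 and 184 without the first and second day 12 control, and 219 and 194 without the first and second day 12 FGF2 library. For late FGF2 the authors' deposited tables hold 834 called genes in DESeq2 and 1306 in limma, of 17705 listed. Of the 147 genes with a different late effect, 144 were called late and not early, 0 were called early and not late, and 3 were called at neither stage. In all fits a gene counts as called at 1 stage only where its late minus early difference was called too. The early result rests on both day 6 FGF2 libraries: without the first of them, so that the second stood alone, 2523 genes were called early and 803 of these at the early stage only, and without the second 0 were called early. All 147 genes were among the calls of both of these fits.

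For 139 of the 144 genes called late only, the 95% interval of the early effect lay within 2-fold in both directions, and for 123 within 1.5-fold. The median early effect was -0.08 on the log2 scale for the 130 genes that were higher and 0.08 for the 17 that were lower, and the median late effects were 1.00 and -0.76. Over all genes tested the median early and late effects were 0.01 and 0. Of the 129 higher genes called late only, 97 had an early value below 0, against 47.6% of all genes tested. The early value enters the difference with a minus sign, so the choice of genes itself favours that sign. Set singly against the day 6 control mean, the first day 6 FGF2 library was lower for 81 of the 130 genes and the second for 91, with median log2 values of -0.03 and -0.15. In the day 12 libraries the FGF2 and control values of all 147 genes did not overlap, which was so for 46.4% of all genes tested. In the day 6 libraries they did not overlap for 43 of the 147, which was so for 28% of all genes tested. The late effect is part of the difference by which the 147 were chosen. The choice itself thus favours separation at day 12, and nothing is read from it.

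**Figure D1:**
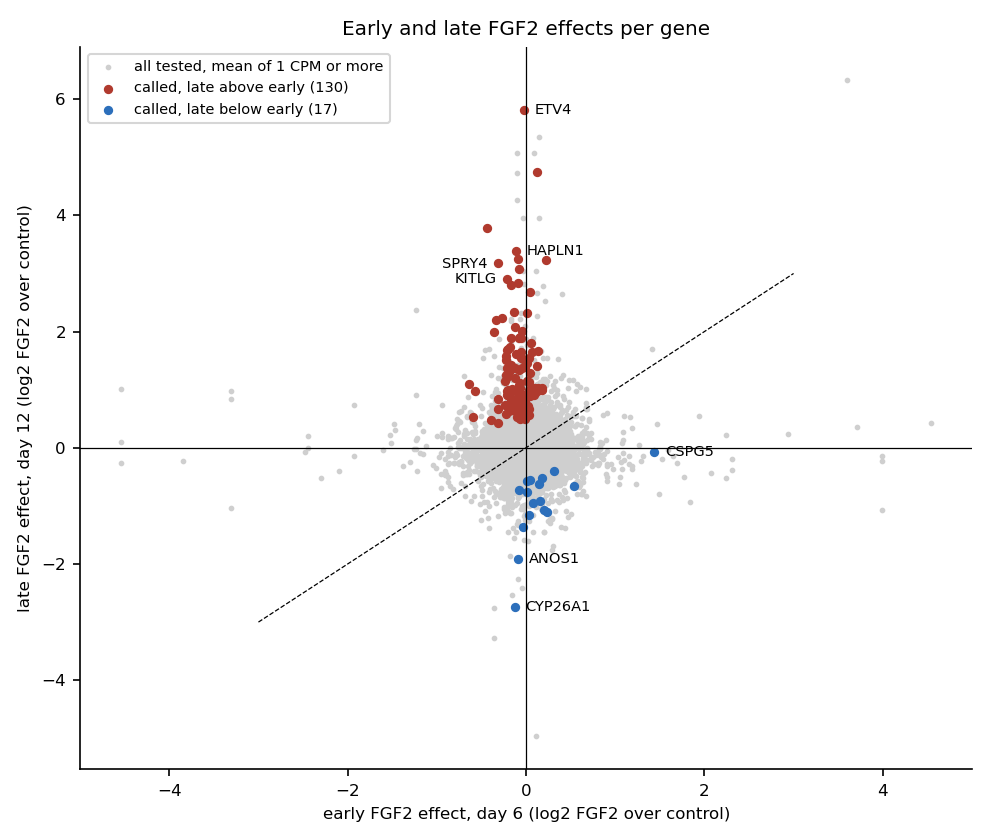
Early FGF2 effect at day 6 (x axis, log2 FGF2 over control) against late FGF2 effect at day 12 (y axis, log2 FGF2 over control), 1 point per gene, with equal effects on the dashed line. The 130 genes in red and the 17 in blue have medians of -0.08 and 0.08 on the x axis, and CSPG5 lies furthest from 0 on it among them, at an early value of 1.44 and a late value of -0.06.

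Known targets of FGF and ERK signalling made up 15 of the 130 higher genes. Of 29 genes on the list, 26 were tested, 20 rose with late FGF2, 15 had a late effect above the early one, and none was called early or below. Over all genes tested 1.63% rose late, 0.645% were called above and 0.0844% below, and these shares stand beside every list that follows. JUN, an AP-1 subunit that is not on the list, was called below, with a difference of -0.70. The median of the 26 was -0.02 early and 1.02 late, against 0.01 and 0 over all genes tested. ETV4 was at 3.22 and 3.13 CPM in the day 6 controls and at 3.05 and 3.22 CPM in the day 6 FGF2 libraries. At day 12 it was at 2.31 and 1.15 CPM in controls and at 96.7 and 99.6 CPM with FGF2. The 4 day 6 libraries thus overlapped, and both day 12 FGF2 libraries lay far above the other 6. The late minus early difference of ETV4 was 5.83 ± 0.28 on the log2 scale (SE of the fit, 2 libraries per group, edgeR adjusted p = 2.78e-08). Its control fell between the days by 0.86 on the log2 scale (adjusted p = 0.00453). In GENCODE 29 on GRCh38, ETV4 (ENSG00000175832) lies on the minus strand at chr17:43527844-43579620.

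The other PEA3 factors started from higher levels. ETV5 was at 41.3 and 41.7 CPM in the day 6 controls, 40.2 and 38.3 CPM with early FGF2, 40.1 and 41.0 CPM in the day 12 controls, and 84.2 and 87.7 CPM with late FGF2. Only the day 12 FGF2 libraries stood apart. The difference was 1.16 ± 0.12 (adjusted p = 8.13e-05). ETV1 had a difference of 1.10 ± 0.16, and its control fell from a mean of 123 to one of 39.0 CPM between the days.

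SPRY4, a Sprouty inhibitor of receptor signalling, took another course. It was at 89.4 and 80.8 CPM in the day 6 controls and at 79.2 and 57.6 CPM with early FGF2, then at 8.60 and 6.45 CPM in the day 12 controls and at 68.1 and 68.0 CPM with late FGF2. The control thus fell by 3.50 on the log2 scale and the late FGF2 libraries lay at the level of the day 6 libraries. The difference was 3.49 ± 0.20 (adjusted p = 2.16e-07). SPRY2 was at 30.1 and 30.5 CPM in the day 6 controls, 31.8 and 31.4 CPM with early FGF2, 13.3 CPM in both day 12 controls, and 46.3 and 46.7 CPM with late FGF2. Its difference was 1.75 ± 0.13.

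In the day 6 controls DUSP6, a phosphatase of ERK, was at 21.8 and 23.3 CPM, and it was at 20.4 and 19.7 CPM with early FGF2. It was at 36.3 and 32.3 CPM in the day 12 controls and at 223 and 253 CPM with late FGF2. Its control rose by 0.60 on the log2 scale, and the late minus early difference was 2.96 ± 0.14 (adjusted p = 2.53e-08). In the annotation 40.5% of its exon bases are shared with another gene, and without strand reads of the pair cannot be told apart. DUSP4 and DUSP5, of the same family, had differences of 0.81 and 1.94. RGS16, which shortens G-protein signals, was at 46.5 to 56.4 CPM in the 4 day 6 libraries, 5.27 and 3.24 CPM in the day 12 controls, and 21.7 and 20.9 CPM with late FGF2. Late FGF2 thus raised it by 2.31 on the log2 scale over the day 12 controls and left it below every day 6 library. The remaining called members of the list, named here after their values were seen, were EGR1, MAFF, MYC, CCND1, JUNB and SPRED2, with differences of 0.92 to 2.64.

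Of the 26 tested, 11 targets were not called. IL17RD, SPRED1, SPRED3, SPSB1 and FOS rose late without a called difference from the early effect. PHLDA1, SPRY1, FLRT3, EPHA2, IER3 and CNKSR3 were called at neither stage. PHLDA1 had a late value of -0.21 and FLRT3 one of -0.04.

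**Figure D2:**
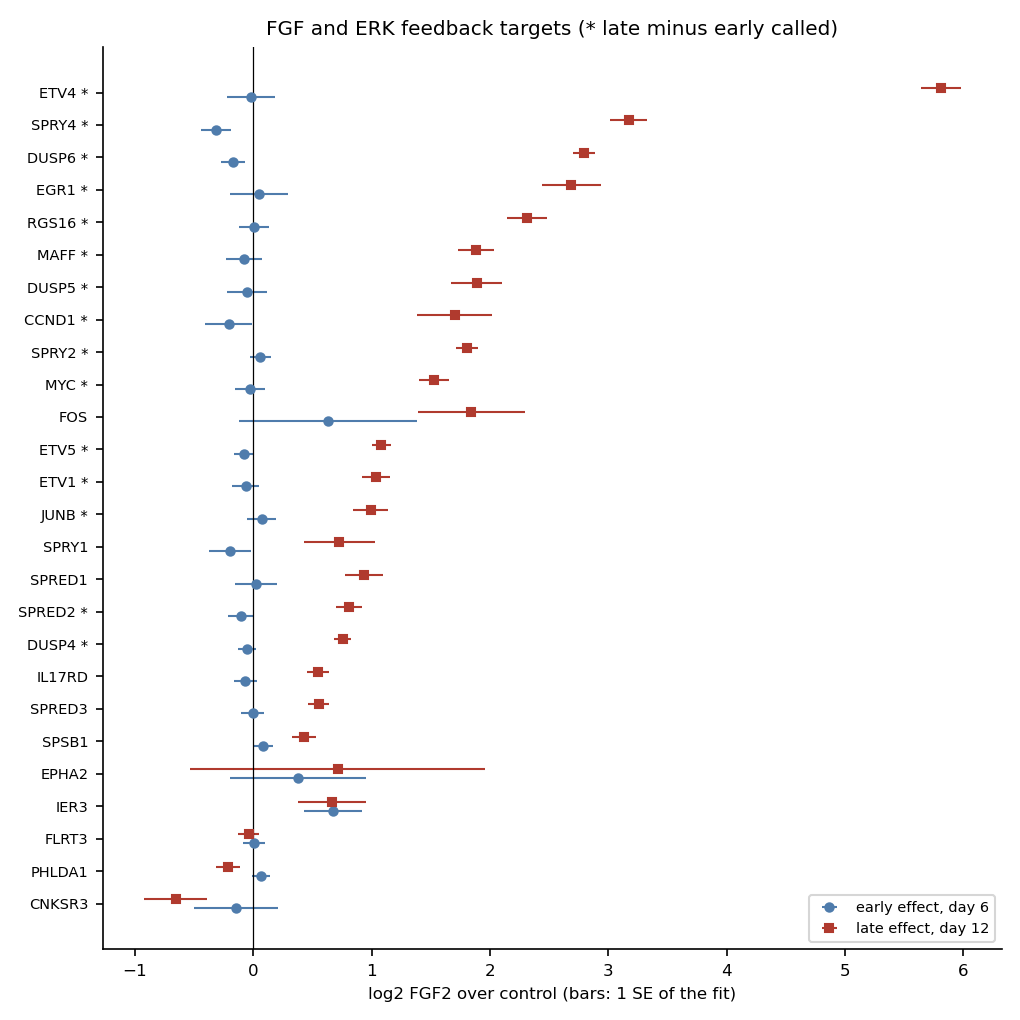
Early (blue) and late (red) FGF2 effects, as log2 FGF2 over control with 1 SE of the fit, for the 26 tested FGF and ERK feedback targets, ordered by their difference. The early values lie near 0 for genes whose late values run up to 5.81 for ETV4, and the stars mark the 15 called genes.

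Promoter sequences are shown for 4 genes whose 250 bases before the RefSeq start hold a motif of a factor downstream of ERK or of cAMP and calcium, and for ANOS1 as the lower gene of largest size among those averaging 5 CPM or more. EGR1 is an immediate-early transcription factor, VGF and SST encode a neuropeptide precursor and somatostatin, and SHC4 is an adaptor of receptor tyrosine kinases. Motifs are in capitals, SRF CArG boxes in EGR1, the cAMP response element TGACGTCA in VGF and SST, and the AP-1 site TGANTCA in SHC4. Stretches that GENCODE 29 gives as exon of the same gene were left out.
EGR1 chr5:138465229-138465478, plus strand: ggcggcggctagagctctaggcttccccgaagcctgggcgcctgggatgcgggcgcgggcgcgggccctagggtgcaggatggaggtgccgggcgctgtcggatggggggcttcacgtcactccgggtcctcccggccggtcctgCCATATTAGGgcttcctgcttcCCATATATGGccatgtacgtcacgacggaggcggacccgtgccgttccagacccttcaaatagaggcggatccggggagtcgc
VGF chr7:101165594-101165819, minus strand: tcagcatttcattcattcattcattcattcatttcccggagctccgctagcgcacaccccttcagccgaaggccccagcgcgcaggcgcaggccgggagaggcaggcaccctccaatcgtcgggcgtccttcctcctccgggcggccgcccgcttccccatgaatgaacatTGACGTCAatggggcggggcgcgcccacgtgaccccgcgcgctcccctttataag
SST chr3:187670400-187670644, minus strand: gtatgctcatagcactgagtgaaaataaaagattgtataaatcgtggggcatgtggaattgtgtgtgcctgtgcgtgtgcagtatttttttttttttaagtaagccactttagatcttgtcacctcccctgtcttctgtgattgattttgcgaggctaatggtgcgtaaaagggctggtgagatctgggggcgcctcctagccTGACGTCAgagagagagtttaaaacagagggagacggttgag
SHC4 chr15:48963920-48964169, minus strand: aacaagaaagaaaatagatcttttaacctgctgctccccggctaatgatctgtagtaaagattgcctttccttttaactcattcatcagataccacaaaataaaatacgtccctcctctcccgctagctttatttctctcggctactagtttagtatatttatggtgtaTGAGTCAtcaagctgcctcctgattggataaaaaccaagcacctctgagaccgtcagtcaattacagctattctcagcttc
ANOS1 chrX:8732187-8732387, minus strand: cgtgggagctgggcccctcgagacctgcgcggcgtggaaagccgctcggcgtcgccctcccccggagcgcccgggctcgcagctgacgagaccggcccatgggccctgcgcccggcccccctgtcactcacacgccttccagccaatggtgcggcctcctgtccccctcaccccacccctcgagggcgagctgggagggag
The sequences are from RefSeq on GRCh38.p14, 5′ to 3′ on the strand of the gene. The 2 CArG boxes of EGR1 lie at 105 to 96 and 83 to 74 bases before the start, the element of VGF at 79 to 72, that of SST at 47 to 40 and the AP-1 site of SHC4 at 81 to 75.

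RefSeq windows matched 97 of the 130 higher genes and 14 of the 17 lower genes by symbol. Both strands were searched. TGANTCA was found in 12 of the 97 (12.4%, against 8.06% of all 27305 genes with a window), TGACGTCA in 3 (3.1% against 2.03%), the CArG box in 3 (3.1% against 1.44%) and the ETS sequence CCGGAAGT in 1 (1.0% against 4.13%). None of the 4 was found in the 14 windows of lower genes. A match gives the letters in this window only.

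EGR1 itself was low. It was at 1.55 and 2.06 CPM in the day 6 controls, 1.70 and 2.04 CPM with early FGF2, 0.770 and 0.854 CPM in the day 12 controls, and 5.20 and 5.31 CPM with late FGF2. VGF was at 37.0 and 37.2 CPM in the day 6 controls, 37.0 and 42.2 CPM with early FGF2, 97.8 and 96.7 CPM in the day 12 controls, and 190 and 206 CPM with late FGF2. The EGR1 control fell between the days and the VGF control rose. In both genes the late FGF2 libraries lay above all others.

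Of 10 tested FGF receptors and coreceptors, ANOS1 alone was called, where 0.73% of all genes tested were, and of 7 tested FGF ligands and 28 genes of heparan sulfate synthesis none was. The receptors' control levels moved between the days. FGFR1 was at 46.6 and 47.6 CPM in the day 6 controls and at 138 and 149 CPM in the day 12 controls, and its control rose by 1.61 on the log2 scale. FGFR3 fell from 7.78 and 6.27 CPM to 0.162 and 0.171 CPM, and FGFR2 from 4.00 and 4.51 CPM to 1.05 and 1.54 CPM. FGFR1 had a late minus early difference of 0.02, which was not called.

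Among 27 core genes of the RAS and ERK route the called ones were the 3 SHC adaptors. SHC3 was at 4.60 and 4.51 CPM in the day 6 controls, 4.71 and 3.33 CPM with early FGF2, 32.0 and 30.1 CPM in the day 12 controls, and 116 and 114 CPM with late FGF2 (difference 2.07 ± 0.19). SHC4 was at 17.1 and 16.4 CPM, 17.3 and 15.3 CPM, 13.7 and 11.7 CPM, and 51.6 and 50.8 CPM in the same order (difference 2.06 ± 0.15). SHC3 thus rose in controls by 2.77 on the log2 scale while SHC4 fell by 0.41. SHC1 had a difference of 0.81, and its control fell by 1.86. Its call was lost without the second day 6 control, either day 12 control or the first day 12 FGF2 library.

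**Figure D3:**
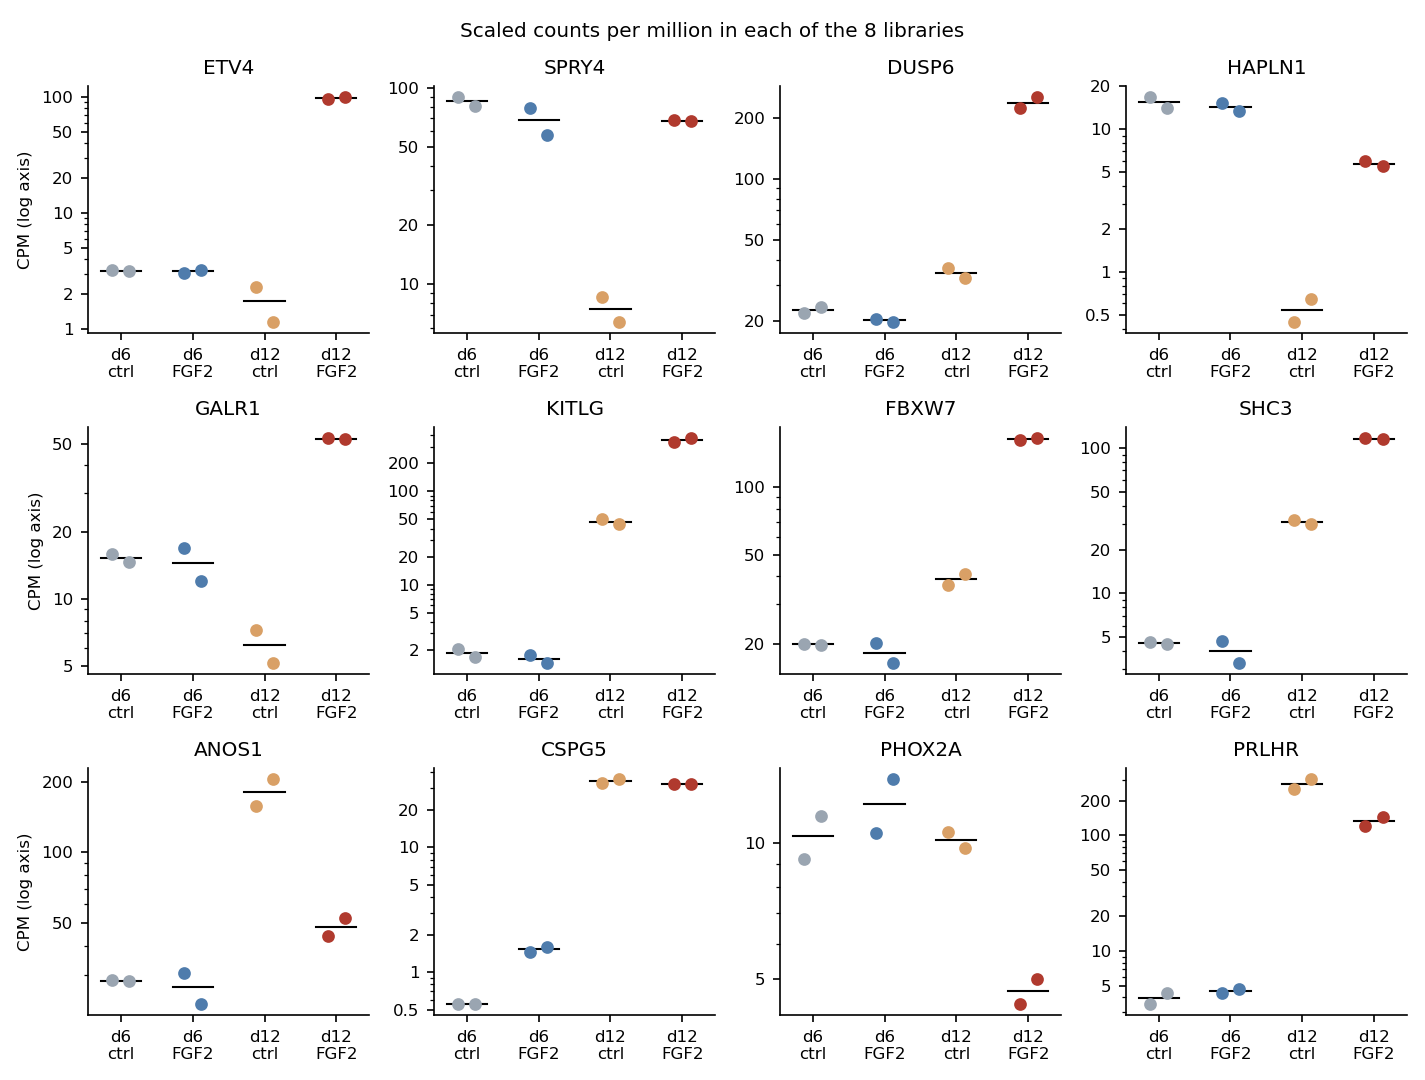
CPM after TMM scaling (log axis) in each of the 8 libraries for 12 of the 147 genes, with 2 points per group and their mean as a bar. The day 6 control and FGF2 points lie within 2-fold of each other except in CSPG5. There early FGF2 is at 1.46 and 1.59 CPM against 0.559 and 0.558 CPM in controls. The day 12 groups lie apart in the other genes. In CSPG5 they are close, at 32.7 and 35.3 CPM in controls and 32.6 and 32.4 CPM with FGF2.

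Of 19 tested genes of the hyaluronan and chondroitin matrix, 3 were called above and 1 below. HAPLN1, the link protein that ties proteoglycans to hyaluronan, was at 16.7 and 14.1 CPM in the day 6 controls and at 15.2 and 13.4 CPM with early FGF2. It was at 0.446 and 0.640 CPM in the day 12 controls, from 26 counts in both together, and at 5.95 and 5.50 CPM with late FGF2. The groups overlapped at day 6 and lay apart at day 12, yet late FGF2 stayed below every day 6 library. The difference was 3.50 ± 0.29 (adjusted p = 7.94e-06), and the control fell by 4.82 on the log2 scale. VCAN, the proteoglycan versican that HAPLN1 binds, lay at 240 and 210 CPM in the day 6 controls and at 231 and 157 CPM with early FGF2. It was at 120 and 109 CPM in the day 12 controls and at 214 and 216 CPM with late FGF2. The difference was 1.12 ± 0.19, with an early value of -0.21. Its call was lost without the first day 6 control or the second day 12 control. CHST15, a chondroitin sulfotransferase, rose from a control mean of 10.1 CPM to 30.0 CPM with late FGF2. HAPLN1 (ENSG00000145681) lies on the minus strand at chr5:83637805-83721613. CSPG5, a brain chondroitin sulfate proteoglycan, was the called member below.

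CSPG5 had its value at the early stage. It was at 0.559 and 0.558 CPM in the day 6 controls and at 1.46 and 1.59 CPM with early FGF2, from 26 and 85 counts per group. In the day 12 libraries it was at 32.7 and 35.3 CPM without and at 32.6 and 32.4 CPM with FGF2. The early value of 1.44 had an unadjusted p of 5.7e-05 and an adjusted p of 0.927, so it was not called early. The difference of -1.50 ± 0.28 was called (adjusted p = 0.0148). It was not called by limma voom, nor without either day 6 control, the second day 12 control or the second day 12 FGF2 library. AXIN2, a target and inhibitor of WNT signalling, and CDH22, a cadherin, were the other 2 genes called at neither stage, with early values of 0.32 and -0.39 and late values of -0.39 and 0.49. AXIN2 lost its call without any 1 of the control or day 12 FGF2 libraries (adjusted p up to 0.33). CDH22 lost it in the same fits and in limma voom (adjusted p up to 0.373).

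ANOS1 was at 28.4 and 28.2 CPM in the day 6 controls and at 30.6 and 22.6 CPM with early FGF2. In the day 12 controls it was at 158 and 205 CPM and with late FGF2 at 44.0 and 52.4 CPM. Its control thus rose by 2.68 on the log2 scale, and the late FGF2 libraries lay between the day 6 libraries and the day 12 controls. The difference was -1.82 ± 0.20 (adjusted p = 0.000186). The gene (ENSG00000011201) lies on the minus strand at chrX:8528874-8732186. Of the 17 lower genes, 13 had a control that rose between the days.

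Of 17 tested neurotrophin, GDNF and KIT signal genes, KITLG and RET were called above and none below. KITLG, the ligand of the receptor KIT, was at 2.02 and 1.67 CPM in the day 6 controls, 1.73 and 1.44 CPM with early FGF2, 50.1 and 44.7 CPM in the day 12 controls, and 337 and 373 CPM with late FGF2. KITLG thus rose between the days in controls and again with late FGF2, and the difference was 3.12 ± 0.24 (adjusted p = 3.26e-06). RET, the receptor of GDNF-family ligands, went from 26.1 and 26.7 CPM in the day 6 controls to 258 and 270 CPM in the day 12 controls and 481 and 497 CPM with late FGF2 (difference 0.90 ± 0.11).

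Of 19 tested peptides and peptide receptors, GALR1, VGF, SST and SCG2 had a late effect above the early one and PRLHR and SSTR2 one below (SST and SCG2 were named after their values were seen). GALR1, a galanin receptor, was at 15.9 and 14.8 CPM in the day 6 controls, 16.9 and 12.0 CPM with early FGF2, 7.26 and 5.17 CPM in the day 12 controls, and 53.0 and 52.4 CPM with late FGF2 (difference 3.16 ± 0.23). PRLHR, the receptor of prolactin-releasing peptide, was at 3.52 and 4.33 CPM in the day 6 controls, 4.37 and 4.70 CPM with early FGF2, 252 and 305 CPM in the day 12 controls, and 121 and 145 CPM with late FGF2 (difference -1.27 ± 0.21). GALR1 fell and PRLHR rose in controls, and late FGF2 went against the control change in both. SSTR2, a somatostatin receptor, was at 289 and 268 CPM in the day 6 controls, 31.3 and 32.6 CPM in the day 12 controls and 17.3 and 20.3 CPM with late FGF2, so that it fell further. PRLHR lost its call without the first day 6 control and in limma voom. SSTR2 lost its call without the second day 6 control, either day 12 control or the first day 12 FGF2 library.

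Of 20 tested sensory and autonomic factors, ETV1 and DRGX were called above and PHOX2A below, against 0.73% called among all genes tested. PHOX2A, a factor of autonomic neurons, was at 9.24 and 11.5 CPM in the day 6 controls, 10.5 and 13.8 CPM with early FGF2, 10.6 and 9.77 CPM in the day 12 controls, and 4.42 and 5.01 CPM with late FGF2 (difference -1.34 ± 0.23). DRGX, a factor of sensory neurons, had a difference of 0.91, and its call was lost without the first day 6 control, either day 12 control or the first day 12 FGF2 library (adjusted p up to 0.111). None of 17 tested proneural factors and targets was called. The difference of PHOX2A lost its call without the first day 6 control, the first day 12 control or the first day 12 FGF2 library. SOX2, a neural progenitor factor, was at 113 and 105 CPM in the day 6 controls, 112 and 113 CPM with early FGF2, 67.4 and 65.6 CPM in the day 12 controls, and 44.0 and 46.2 CPM with late FGF2. Its difference was -0.61 ± 0.11 (adjusted p = 0.0131), and it was not called when any 1 control or day 12 FGF2 library was left out.

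CYP26A1, which degrades retinoic acid, was the gene called among 14 tested of retinoic acid metabolism and its receptors. It was at 0.645 and 1.12 CPM in the day 6 controls, 0.589 and 1.04 CPM with early FGF2, 11.1 and 13.2 CPM in the day 12 controls, and 1.46 and 2.14 CPM with late FGF2. The control rose between the days and the late FGF2 libraries lay far below it. Its difference of -2.61 ± 0.46 (adjusted p = 0.0112) was the lowest of the 147 genes. The call was lost without the first day 6 control or the second day 12 control, and 25.2% of its exon bases are shared with another gene.

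Axon guidance genes held 4 called above and 1 below among 38 tested, against 0.645% and 0.0844% of all genes tested. The semaphorin receptor NRP1 was at 37.5 and 35.9 CPM in the day 6 controls, 36.0 and 29.9 CPM with early FGF2, 120 and 116 CPM in the day 12 controls, and 238 and 236 CPM with late FGF2 (difference 1.16 ± 0.13). SEMA3E, SEMA3D and SLIT2, secreted guidance cues, had differences of 0.97, 0.64 and 0.69, and SEMA3C, another semaphorin, one of -0.65. The call of SEMA3E was lost without the second day 6 control. UNC5B, a netrin receptor that is not on the list and was named after its values were seen, was also called above (difference 1.43 ± 0.27). Of 35 tested synaptic vesicle and scaffold genes SV2B and RIMS1 were called above. SYT2, a synaptotagmin that is not on the list and was named after its values were seen, was also called above (difference 1.97 ± 0.21). In the annotation 27.2% of its exon bases are shared with another gene. Of 34 tested voltage-gated channels SCN9A was called above, and of 32 transmitter receptors and transporters GRIK2 was. CACNA2D3, a calcium channel subunit that is not on the channel list, was called below, with a difference of -1.20. Its call was lost without the first day 6 control or the second day 12 control. For SLIT2, SEMA3C, SV2B, RIMS1, SCN9A and GRIK2 the call was lost when any of 5 or 6 of the 8 libraries was left out, while NRP1 was called throughout.

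Outside the lists, large differences were found for FBXW7, the substrate-binding part of a ubiquitin ligase, and DCBLD1, a membrane protein. FBXW7 was at 20.0 and 19.7 CPM in the day 6 controls, 20.1 and 16.5 CPM with early FGF2, 36.6 and 40.9 CPM in the day 12 controls, and 162 and 165 CPM with late FGF2. DCBLD1 was at 4.68 and 4.42 CPM, 4.23 and 4.33 CPM, 4.01 and 3.93 CPM, and 36.3 and 39.2 CPM in the same order. Late FGF2 alone set the DCBLD1 libraries apart, while FBXW7 rose in controls as well. Among the lower genes, HRK, an activator of apoptosis, was at 90.1 and 89.5 CPM in the day 12 controls and 46.8 and 48.6 CPM with late FGF2, from 2.71 to 3.40 CPM in the day 6 libraries.

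The control level of most of these genes moved between day 6 and day 12. Over all genes tested, 31.7% rose and 32.3% fell in controls. Of the 130 higher genes, 73 fell in controls (56.2%), 42 rose (32.3%) and 15 were not called. Of the 17 lower genes, 13 rose (76.5%), 2 fell and 2 were not called. The difference and the change of the control share all 4 control libraries, so that a high day 12 control lowers the one and raises the other, and nothing is read from these shares.

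**Figure D4:**
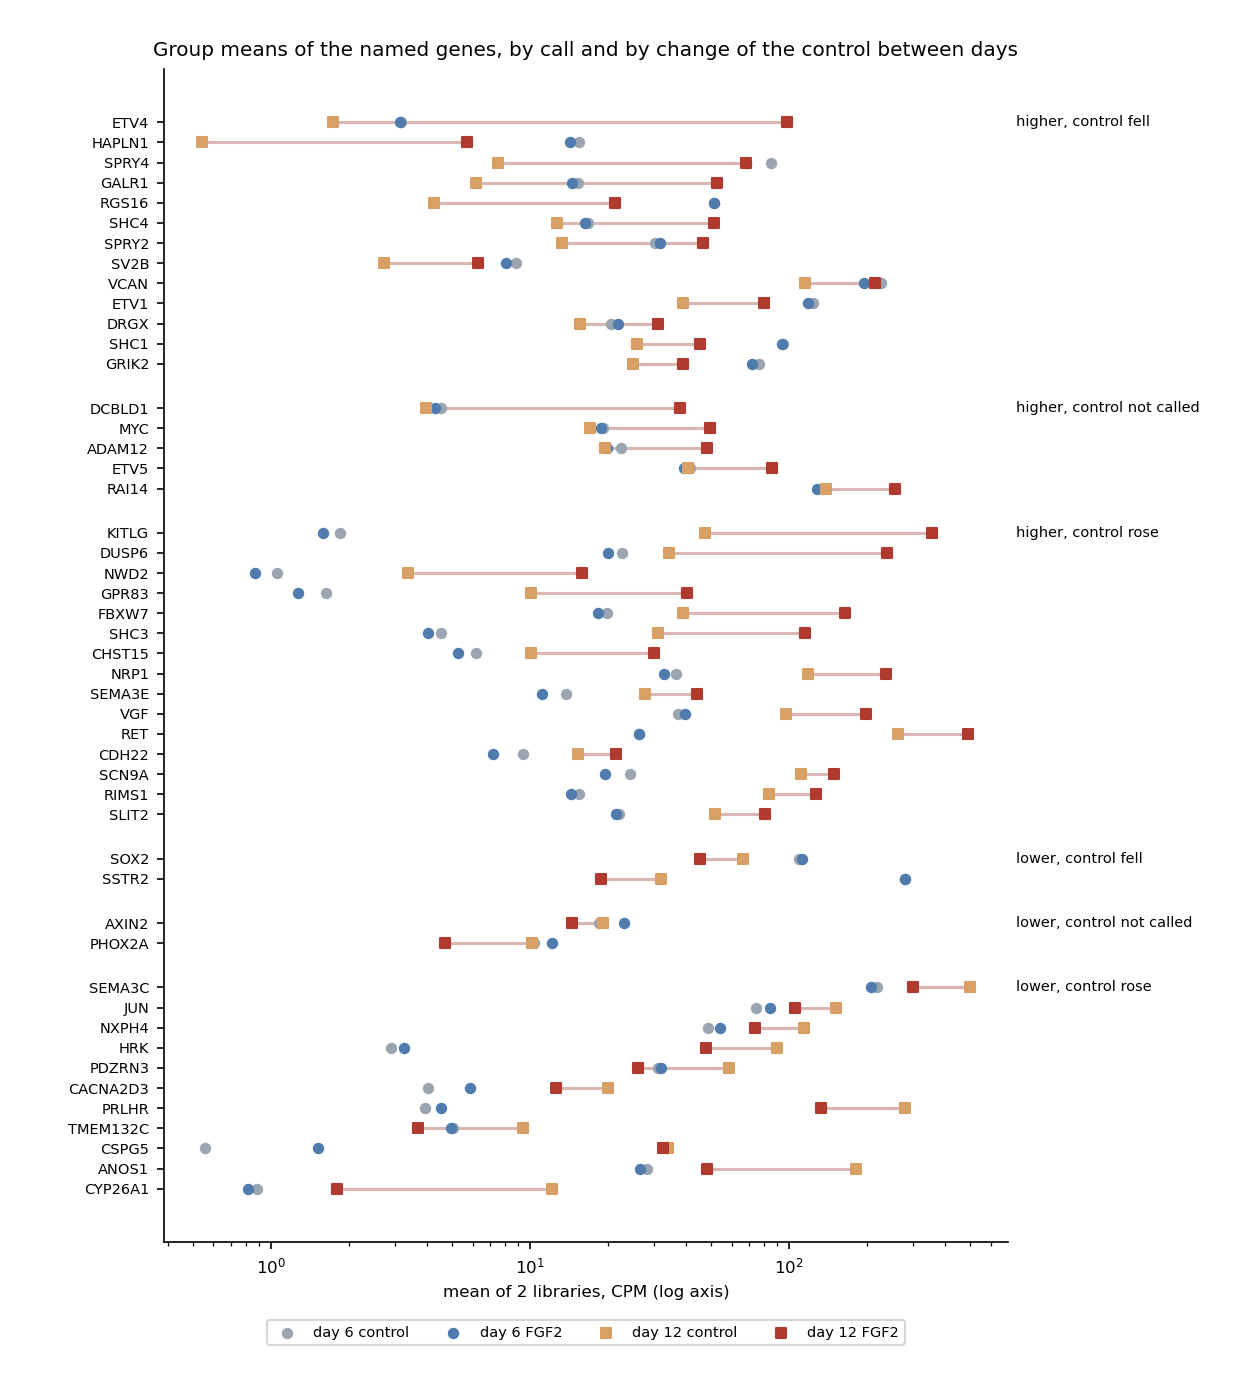
Mean CPM of 2 libraries (log axis) in each of the 4 groups for the 48 named genes, in 6 blocks by the direction of the difference and the change of the control between days. Lines join the day 12 control to the day 12 FGF2 mean, and in the block of higher genes whose control fell some lines end near the day 6 points (SPRY4, VCAN) and others beyond them (ETV4, GALR1).

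Where the control of a higher gene fell, the late FGF2 libraries mostly lay below or at the day 6 level. For 44 of the 73 genes both day 12 FGF2 libraries lay below all 4 day 6 libraries, for 14 they overlapped them and for 15 they lay above. The median of the 73 in the day 12 control was -1.66 on the log2 scale relative to the day 6 control, and with late FGF2 it was -0.62. RGS16, HAPLN1, ETV1 and SHC1 were among the 44, SPRY4 and VCAN among the 14, and ETV4, GALR1, SPRY2, SHC4 and EGR1 among the 15. For all 42 higher genes whose control rose, KITLG, SHC3, NRP1 and RET among them, both day 12 FGF2 libraries lay above all day 6 libraries, at a median of 2.70 against 1.52 for the day 12 control. The 15 higher genes without a called control change, DCBLD1, ETV5 and MYC among them, also lay above. Choosing genes whose control rose or had no called change, with a late effect above the early one, itself favours that place. Choosing genes whose control fell favours a low place at day 12, and the matching share over all genes was not counted. Nothing is read from the place of these 73, 42 and 15 genes.

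Where the control of a lower gene rose, the late FGF2 libraries mostly lay between the day 6 and the day 12 control levels. For 10 of the 13 both late FGF2 libraries stayed above all day 6 libraries, ANOS1, PRLHR and HRK among them. PDZRN3, a ubiquitin ligase, and TMEM132C, a membrane protein, went below all of them. PDZRN3 was at 33.4 and 28.9 CPM in the day 6 controls, 52.5 and 64.2 CPM in the day 12 controls and 24.9 and 27.3 CPM with late FGF2. The median of the 13 was 1.22 in the day 12 control and 0.60 with late FGF2, relative to the day 6 control. A risen control and a late effect below the early one, by which the 13 were chosen, favour a place under the day 12 control. The matching share over all genes was not counted, and nothing is read from the place of these 13 genes.

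Another set of the series kept doxycycline on, with 1 library at day 5 and 1 at day 11 and no FGF2, and allows no test. Of the 73 higher genes whose control fell after withdrawal, 66 were lower at day 11 than at day 5 with doxycycline kept (90.4%, against 81.3% of all tested genes that fell). Of the 42 whose control rose, 21 were higher at day 11 (50.0%, against 79.2%). ANOS1 went from 26.9 to 126 CPM and HAPLN1 from 11.1 to 0.420 CPM there, the same directions as after withdrawal, while DUSP6 went from 92.9 to 60.6 CPM and FBXW7 from 47.7 to 32.0 CPM, against it. The days and the libraries differ between the sets, and values were scaled within each.

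Markers of other cell types were counted in the same way, with 0.73% of all genes tested called. Of 30 cell cycle genes, 10 glial, 9 Schwann and neural crest, 14 mesenchymal, 5 epithelial and 6 pluripotency genes tested, none had a called difference, and of 13 neural progenitor genes SOX2 had. The cyclins CCND1 and CCND2 are not on the cell cycle list, and both were called above. CCND2 was at 32.4 and 33.5 CPM in the day 12 controls and at 84.6 and 86.3 CPM with late FGF2. The summed level of the 15 neural progenitor markers was 897 and 955 CPM in the day 12 controls and 1040 and 1110 CPM with late FGF2, and that of the 15 glial markers 367 CPM in both controls and 310 CPM in both FGF2 libraries. The cell cycle sum was 274 and 277 CPM against 274 and 281 CPM, and at day 6 it was 1560 and 1750 CPM in controls and 1480 and 1660 CPM with FGF2. Other sums that did not overlap at day 12 were those of the pluripotency genes, at 295 and 298 CPM in controls and 337 and 353 CPM with FGF2, and of the stress and unfolded protein genes, at 1150 and 1130 CPM and 1250 and 1290 CPM. The epithelial sum was 13 and 13.8 CPM against 15.2 and 16 CPM, and the Schwann and neural crest sum 8.31 and 9.22 CPM against 9.77 and 9.43 CPM. The mitochondrial messenger RNAs summed to 27300 and 28900 CPM in the day 12 controls and to 30900 and 31200 CPM with FGF2. The part of these sums in the differences was not tested.

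A further 293 genes were called late and had no called difference between the stages. Of these, 200 rose late, with a median of 0.66 late and 0.03 early, and 93 fell, with a median of -0.57 late and -0.05 early. The difference pointed the way of the late effect in 199 of the 200 and 91 of the 93, and 6 of the 293 had an early p below 0.05 before adjustment. For these genes neither a stage-specific response nor an equal one was shown. At the threshold the last of the 147 genes had an adjusted p of 0.049 and the next gene one of 0.0506.

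With other tools the count of 147 moved less than with a library left out. It was 188 in DESeq2 and 132 in limma voom, with 147 and 131 of the 147 among them. It was 81 without the first and 86 without the second day 6 control, 97 without the first and 78 without the second day 12 control, and 100 without the first and 91 without the second day 12 FGF2 library. It was 1345 without the first and 353 without the second day 6 FGF2 library. ETV4, HAPLN1, SPRY4, DUSP6, KITLG, GALR1 and ANOS1 were called in every one of the 15 alternatives. A library standing alone in its group was taken to vary like the other groups.

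**Figure D5:**
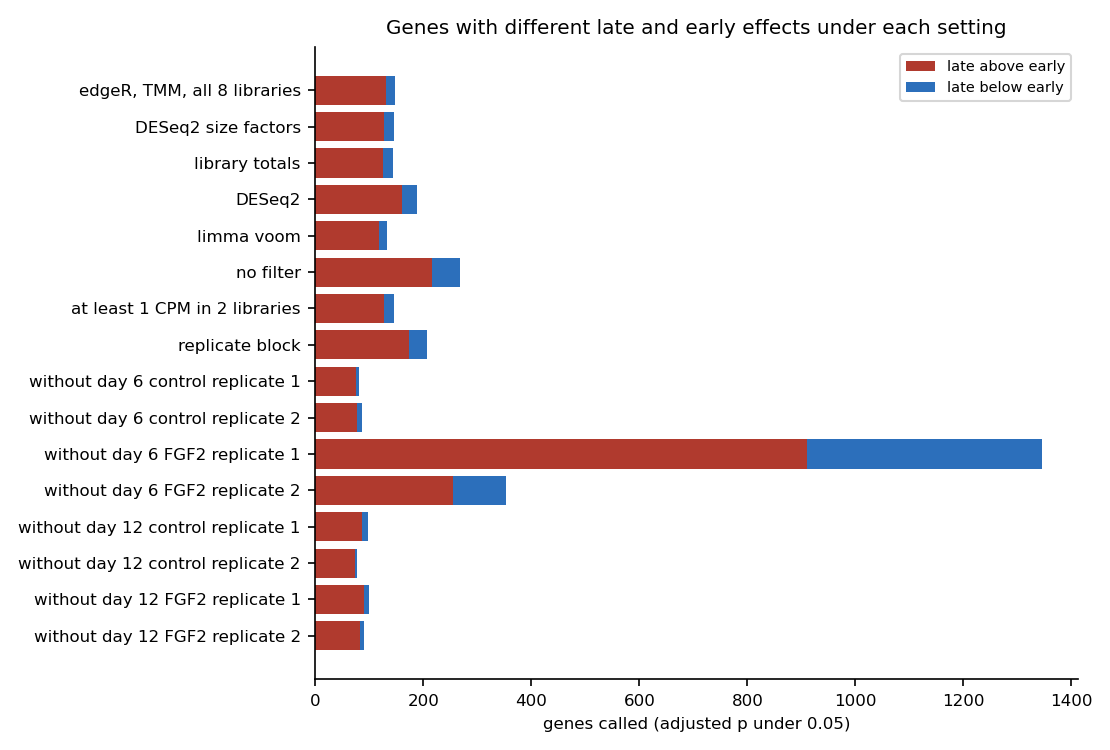
Number of genes called for the late minus early difference (x axis, adjusted p under 0.05) with each setting or with 1 library left out, late above early in red and below in blue. The bars lie between 78 and 268 genes apart from those without a day 6 FGF2 library, at 1345 and 353.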

How the data were processed

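RNA of 8 wells was sequenced from TruSeq RNA v2 libraries as 50-cycle single reads. Per the submitters' processing notes, reads were handled with Subread and featureCounts 1.5.0 on GRCh38, and limma and DESeq2 were used by the authors. The strand setting of the counting is not given in the sources used here. The authors deposited whole-number counts per gene for the 8 libraries, and tables of their comparisons with log2 fold changes and p-values, which were used only where named. Of the per-sample columns, 24 were not used.

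The counts were fitted here with edgeR 4.0.16 in R 4.3.3, with 1 mean per group over the 8 libraries. Genes were kept by filterByExpr (20142 of 60554), libraries scaled by TMM, and contrasts tested by the quasi-likelihood F test. P-values were adjusted by Benjamini and Hochberg's method across the tested genes, and those under 0.05 count as called. Each ± after a log2 value is the SE of the fit, and levels are TMM-scaled CPM. DESeq2 1.42.0 and limma 3.58.1 (voom), other scalings and filters, a replicate block, single-day fits and leaving out each library were the alternatives. The script was tested on simulated data. Gene names came from the deposited tables and GENCODE 29.

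Named genes were ETV4, HAPLN1 and ANOS1, the 12 largest differences each way among called genes that averaged 5 CPM or more and had 1 sign in both numbered pairs, the 5 of smallest p in each class of direction and control change, and up to 4 per gene list. The genes, the 29 lists and the rules were chosen with earlier results of these data known.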

Additional observations from a re-analysis of the deposited data

Results flagged for a closer look

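The effect of FGF2 differed between the early and the late stage, by the test of the difference itself, for 147 genes. The values below are that difference on the log2 scale, late minus early, from the 8-library edgeR fit.

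Among genes with a positive difference, ETV4 had 5.83 and SPRY4 3.49. HAPLN1, whose control fell between the days, had 3.50. DCBLD1 had 3.34 with no called change of its control. GALR1, a peptide receptor, had 3.16, and GPR83, another G-protein-coupled receptor, had 2.36. KITLG had 3.12 and DUSP6 2.96, and the controls of both rose between the days. RGS16 had 2.31 and FBXW7 had 2.20. NWD2 had 2.50. SHC3 had 2.07.

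Among genes with a negative difference, ANOS1 had -1.82. CSPG5 had -1.50, which came from its early value. PHOX2A had -1.34 and TMEM132C -1.32. PRLHR had -1.27 and HRK had -1.07. CACNA2D3, a calcium channel subunit, had -1.20 with an early value of 0.54, and PDZRN3 had -1.20. SSTR2 and NXPH4, a neurexophilin, each had -0.77. AXIN2 had -0.71 and JUN, an AP-1 subunit, had -0.70, with early values of 0.32 and 0.18.

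Of the 12 genes with a positive value, NWD2 alone lost its call under an alternative, without the second day 6 control. Of the 12 with a negative value, ANOS1 and PDZRN3 kept theirs under all 15 alternatives. HRK lost it in 1 alternative, CACNA2D3 and PRLHR in 2, JUN, PHOX2A and TMEM132C in 3, NXPH4 and SSTR2 in 4, CSPG5 in 5 and AXIN2 in 6, each by a library left out, with limma voom in addition for PRLHR and CSPG5.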

How the results depend on the processing

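Leaving out 1 library at a time gave 78 to 1345 genes called for the late minus early difference, 0 to 2523 for the early effect, 184 to 1188 for the late effect, 77 to 345 late-only and 0 to 803 early-only genes, and the highest early and early-only counts came without the first day 6 FGF2 library. Without a filter on low counts 38116 genes were tested. The difference was then called for 268 genes, the late effect for 656 and late-only for 250, and why these counts were higher was not tested. With only the 4 libraries of day 12 the late effect was called for 1338 genes, and the cause was not tested. The labels do not say what the numbers in the titles share. Deviations of same-numbered libraries correlated at 0.347 within day 6, at 0.148 within day 12 and at 0.004 to 0.17 between the days, and with the replicate block 206 genes were called for the difference, all 147 among them, 0 for the early effect and 598 for the late effect. The other scalings, DESeq2, limma voom and the filter at 1 CPM gave 132 to 188 genes. Of 48 named genes 24 were called under all 15 alternatives, 93 of 720 calls were lost and none of the 48 changed sign. With 2 libraries a group, the spread between libraries limits which differences pass, and an early effect missing the test is not shown to be absent.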
